A study of Mus musculus with 6 samples.

Results

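The endoplasmic reticulum (ER) secretory and protein folding genes are a list of 44 genes, drawn up by function, that encode the ER chaperones, the translocon, the machinery of ER-associated degradation and factors of antibody assembly. All 44 were found by Entrez identifier and symbol among the 27179 genes of the count table, and all 44 were among the 11005 genes tested. They were measured by RNA-seq in germinal centre (GC) B cells sorted from the spleens of C57BL/6 wild-type (WT) and IL-21 receptor deficient (Il21r-/-) mice on days 7, 10 and 14 after immunization with NP-KLH, a hapten coupled to a carrier protein, in alum. There were 6 libraries, 3 per genotype and 1 per genotype and day, and the comparisons ask how the loss of IL-21 receptor and the time after immunization bear on the GC B cell transcriptome. The sort took antigen-binding, IgG1+ B cells with low CD38 that lacked CD138, IgM, IgD and Gr1. According to the study's methods the receptor mutation had been backcrossed onto that strain, and every experiment other than a nucleotide-labelling time course was done in irradiated Ly5.1 recipients of WT or Il21r-/- bone marrow, in which non-haematopoietic cells remain those of the host. The series' design gives each sample its own mouse, whereas the methods give more mice per genotype than there are libraries, from separate immunizations, so the number of mice behind a library is not settled. An age per library was not given in the sources used here. The p-values therefore measure the spread between the 6 libraries.

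Proteins bound for the cell surface or for secretion enter the ER through the Sec61 translocon, lose their signal peptide to the signal peptidase, and are folded by Hsp70-type, Hsp90-type and lectin chaperones together with disulfide isomerases. Chains that fail to fold are returned to the cytosol and degraded, and folded cargo leaves in vesicles with a COPII coat. The unfolded protein response adjusts this machinery through the sensors encoded by Ern1, Atf6 and Eif2ak3. In the B lineage the same genes are known for their high expression in antibody-secreting plasma cells, whereas GC B cells display antigen receptor on their surface.

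The libraries held between 21353438 and 27435124 counts. Il21r itself was at 346, 263 and 247 CPM (counts scaled to library size) in WT on days 7, 10 and 14, and at 106, 128 and 113 in Il21r-/-, so the genotype labels matched the targeted gene, whose transcript remained in part. The GC gene Bcl6 was present in all 6 libraries. Sdc1, which encodes the plasma cell antigen CD138 excluded by the sort, was below 0.9 CPM throughout, and none of the T cell receptor genes Cd3e, Cd3d, Cd3g and Trac reached 1 CPM. The 8 T cell markers summed to between 84.8 and 123 CPM, nearly all of it Lck, which B cells can also express. The 5 erythroid markers summed to between 4.80 and 33.6 CPM. Some marker lists moved with genotype. The 7 myeloid markers, although low, summed to 14.2, 8.42 and 12.5 CPM in WT on days 7, 10 and 14 and to 19.9, 12.2 and 16.6 CPM in Il21r-/-, and 1 of the 4 tested, Cd68, was called higher in Il21r-/- (adjusted p = 0.0449). Naive or memory B cell genes summed to 312 to 748 CPM in WT and 732 to 1191 CPM in Il21r-/-, cycling genes to 2225 to 2922 and 1971 to 2163 CPM, and 10 plasma cell genes, mainly Xbp1 and Slamf7, to 519 to 566 and 609 to 645 CPM. The mean log2(CPM + 0.5) of the 10 plasma cell genes went the other way from their sum. It was 3.39, 3.38 and 3.26 in WT on days 7, 10 and 14 and 3.21, 3.16 and 2.997 in Il21r-/-. That mean weighs each gene alike, including Sdc1, Tnfrsf17 and Fkbp11, which had at most 31 counts in a library and were not tested. Of the 7 plasma cell genes tested, 2 had the higher level in WT, Prdm1 and Tent5c, and 5 in Il21r-/-, among them Xbp1 and Irf4. Of those not tested, Sdc1 was higher in WT on each day, Fkbp11 in Il21r-/- on each day, and Tnfrsf17 was mixed. Tent5c was called over the 3 days (2.09 on the log2 scale, SE 0.15, edgeR quasi-likelihood test, adjusted p = 0.000297). Prdm1, the gene of the plasma cell factor BLIMP-1, was called (1.64 on the log2 scale, SE 0.33, adjusted p = 0.0216). That call was lost without any one of 5 of the 6 libraries (adjusted p between 0.0573 and 0.0662). Prdm1 had only 38, 45 and 34 counts in WT on days 7, 10 and 14 and 6, 16 and 17 in Il21r-/-. Irf4 was called with day as a block (adjusted p = 0.0384) and not without it (adjusted p = 0.155). With day, all 8 naive or memory genes had negative slopes and 4 were called, and 9 of the 10 cycling genes had positive slopes and 0 were called. Their part in the differences described here was not tested, and in bulk RNA fewer cells of a type and less RNA per cell cannot be told apart.

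Some members of the list held promoter sequences named for the ER stress response. The list was drawn up by function and holds genes of that response, so the shares below are not independent of its choice. The ER stress response element (ERSE), read by ATF6 and XBP1 together with NF-Y, was searched as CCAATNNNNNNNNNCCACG, its variant ERSE-II as ATTGG and CCACG with any 1 base between them, and the unfolded protein response element (UPRE) as TGACGTGG, each on both strands of the RefSeq promoter windows of mouse build GRCm38.p6, which run from 250 bases before to 50 bases after a gene's start. These spellings do not contain one another. A window was available for 35 of the 44 members. ERSE occurred in 9 of these (25.7%), against 0.137% of the windows of 27025 genes and 0.199% of those of 8529 tested genes. ERSE-II occurred in 2 members, Dnajb11 and Herpud1 (5.71%, against 0.0444% of all and 0.0938% of tested genes), and UPRE in 2, Sec24d and Txndc5 (5.71%, against 0.714% and 1.08%). Together 13 members (37.1%) held at least 1 of the 3, against 0.884% of all and 1.36% of tested genes. The gene models used for counting Sec24d and Txndc5 begin upstream of the windows that held their UPRE. These are matches of letters and not measured binding sites.

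The 250 bases before the start are shown for 3 members with a match, the ER Hsp70 gene Hspa5, the lectin chaperone gene Calr and the degradation gene Herpud1, and for Pdia4 and Edem1, which passed a test in the comparisons that follow and had no match. Capitals mark the match, and all runs read 5′ to 3′ on the strand of the gene. They lie at chr2:34771840-34772089 (plus strand, Hspa5), chr8:84846932-84847181 (minus, Calr), chr8:94386179-94386428 (plus, Herpud1), chr6:47813513-47813762 (minus, Pdia4) and chr6:108828391-108828640 (plus, Edem1). The gene model used for counting Edem1 begins upstream of its window.
Hspa5: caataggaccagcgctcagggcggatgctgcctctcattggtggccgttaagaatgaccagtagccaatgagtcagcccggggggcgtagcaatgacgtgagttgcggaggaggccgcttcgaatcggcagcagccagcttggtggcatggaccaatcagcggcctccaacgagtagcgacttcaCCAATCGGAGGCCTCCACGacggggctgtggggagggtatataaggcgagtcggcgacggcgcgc
Calr: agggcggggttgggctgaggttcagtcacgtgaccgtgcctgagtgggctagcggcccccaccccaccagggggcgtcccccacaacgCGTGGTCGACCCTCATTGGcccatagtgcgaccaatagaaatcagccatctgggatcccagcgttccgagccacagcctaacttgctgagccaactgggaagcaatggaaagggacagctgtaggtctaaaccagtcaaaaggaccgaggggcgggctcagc
Herpud1: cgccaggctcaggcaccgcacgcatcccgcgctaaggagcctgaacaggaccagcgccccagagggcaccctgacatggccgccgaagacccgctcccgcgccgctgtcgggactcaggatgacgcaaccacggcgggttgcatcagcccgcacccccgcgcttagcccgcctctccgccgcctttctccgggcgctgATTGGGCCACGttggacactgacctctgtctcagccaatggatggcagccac
Pdia4: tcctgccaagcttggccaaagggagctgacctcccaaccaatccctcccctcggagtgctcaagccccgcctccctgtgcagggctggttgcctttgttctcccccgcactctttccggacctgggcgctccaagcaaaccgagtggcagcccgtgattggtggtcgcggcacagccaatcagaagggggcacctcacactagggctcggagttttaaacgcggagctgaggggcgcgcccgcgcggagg
Edem1: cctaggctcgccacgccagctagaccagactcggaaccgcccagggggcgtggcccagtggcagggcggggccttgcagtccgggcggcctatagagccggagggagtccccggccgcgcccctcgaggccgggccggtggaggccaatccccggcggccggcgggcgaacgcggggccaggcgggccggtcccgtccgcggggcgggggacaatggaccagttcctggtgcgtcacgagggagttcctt
In Hspa5 the ERSE began 65 bases before the start, and in Calr, where it lies in the opposite orientation and so reads as its reverse complement, 162 bases before it. The ERSE-II of Herpud1 began 52 bases before the start.

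The other ERSE matches are shown with 5 bases on each side, so that the 9-base spacer, which the search left free, can be compared between members. Creld2, Derl3 and the first match of Hsp90b1 carry it in the opposite orientation.
Canx: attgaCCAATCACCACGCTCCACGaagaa
Creld2: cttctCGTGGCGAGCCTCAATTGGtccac
Derl3: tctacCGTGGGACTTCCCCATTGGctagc
Dnajc3: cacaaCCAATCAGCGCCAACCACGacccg
Hsp90b1, first match: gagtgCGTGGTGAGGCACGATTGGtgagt
Hsp90b1, second match: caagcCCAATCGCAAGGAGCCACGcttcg
Pdia6: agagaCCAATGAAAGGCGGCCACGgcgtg
Syvn1: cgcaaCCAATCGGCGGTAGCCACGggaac
Hsp90b1, which encodes the ER Hsp90 GRP94, was the member with 2 matches, 107 and 212 bases before its start. All matches of ERSE in members lay between 44 and 212 bases before the start, while the ERSE-II of Dnajb11 lay after it.

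The 44 genes together made up 11383, 10416 and 11064 CPM in WT on days 7, 10 and 14 and 12401, 11008 and 12730 CPM in Il21r-/-. This was a mean of 1.15% of the scaled library size, which is built from the counts of the tested genes. The sum of the 44 genes was higher in Il21r-/- on each day, although the ranges of the genotypes overlapped. The 2 antibody assembly genes, Jchain and Mzb1, accounted for between 31.7% and 38.9% of the sum. They summed to 3609, 3340 and 3842 CPM in WT on days 7, 10 and 14 and to 4367, 3654 and 4955 CPM in Il21r-/-. The lectin chaperone and translocon classes were also higher in Il21r-/- on each day. The sums of the other classes went in both directions between days. Expressed per kilobase of exon (RPKM), Mzb1 was the highest member with a mean of 1467 over the 6 libraries, followed by Jchain with 1252, and the ranges of the 2 genes over the libraries overlapped. Calr (303 RPKM), Sec61b (291), Pdia3 (262) and Sec11c (257) formed the next group, whose ranges over the libraries also overlapped, ahead of Hspa5 (209). Ern1, which encodes the sensor IRE1 alpha, was the lowest member at 0.287 RPKM, with between 21 and 38 counts per library. The heat map of the members by library shows how far each gene departed from its own mean.

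**Figure D1:**
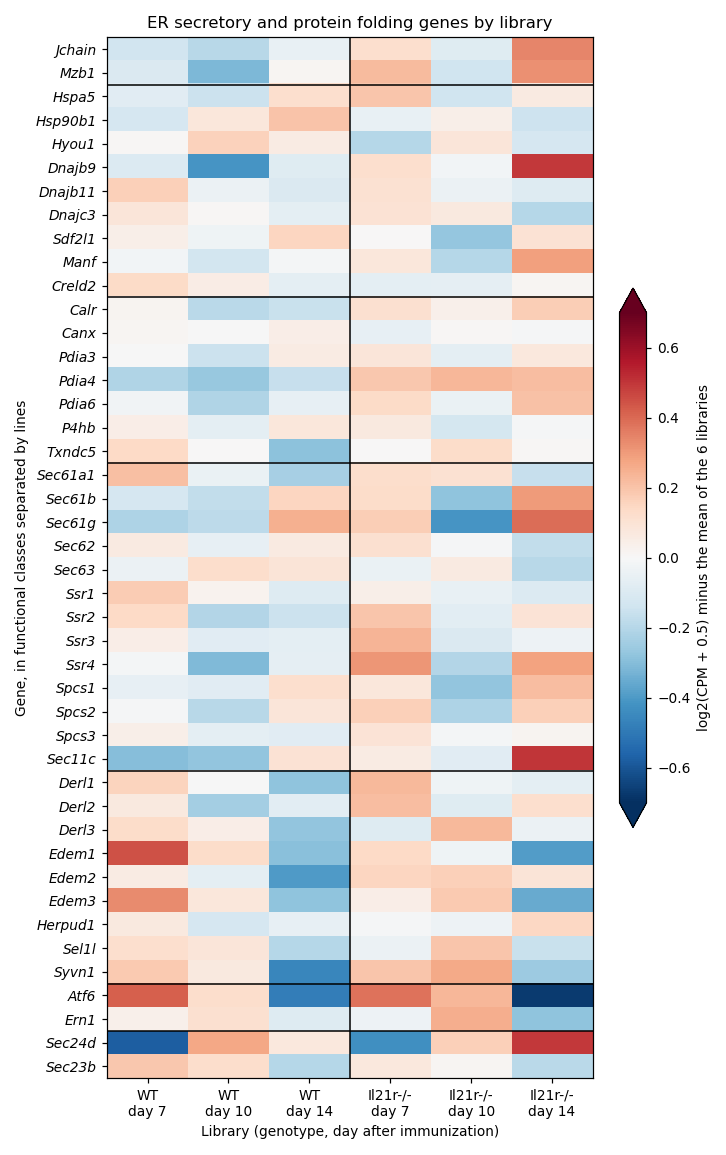
Level of each of the 44 genes (rows, ordered by functional class) in each of the 6 libraries (columns, WT then Il21r-/-, days 7, 10 and 14), as log2(CPM + 0.5) minus the mean of that gene over the libraries, red above and blue below the mean. Pdia4 was below its mean in the 3 WT libraries and above it in the 3 Il21r-/- libraries, and Atf6 and Edem1 went from red on day 7 to blue on day 14 in both genotypes.

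Loss of IL-21 receptor was accompanied by small differences in these genes. Over the 3 days, with a linear effect of day in the model, 1 of the 44 members differed between genotypes at an adjusted p under 0.05 (edgeR quasi-likelihood test, Benjamini-Hochberg over 11005 genes), Pdia4, which was higher in Il21r-/-. The share of all genes called was 5.92%, made up of 1.40% with the higher level in WT and 4.52% with the higher level in Il21r-/-, and 4 members against 21.4% of all genes had an unadjusted p under 0.05. The log2 fold changes of the members, written as WT minus Il21r-/- so that a negative value is a higher level in Il21r-/-, ran from -0.43 to 0.19 with a median of -0.07, beside a median of -0.01 for all genes. No member exceeded 0.5 in either direction, against 11.4% of all genes. The difference was negative for 28 of 44 members (63.6%), against 51.8% of all genes.

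The 2 libraries of a day deviated together from their genotype means, which includes any change with day common to both genotypes. With day as a replicate block, which compares the genotypes within each day, 8 members (18.2%) were called against 22.9% of all genes. All 8 were higher in Il21r-/-, a direction in which 13.6% of all genes were called, with 9.33% in the other. They were Jchain, Mzb1, Dnajb9, Pdia4, Calr, Sec11c, Ssr4 and Edem2. Pdia6 stood just outside at an adjusted p of 0.0517 with the block. By level alone, the 3 WT and 3 Il21r-/- libraries did not overlap for 4 members (9.09%), Dnajb9, Calr, Pdia4 and Edem2, each higher in Il21r-/-. Non-overlap in that direction was seen for 10.0% of all genes and in either direction for 18.4%. The plot of genotype differences sets the members side by side by class.

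**Figure D2:**
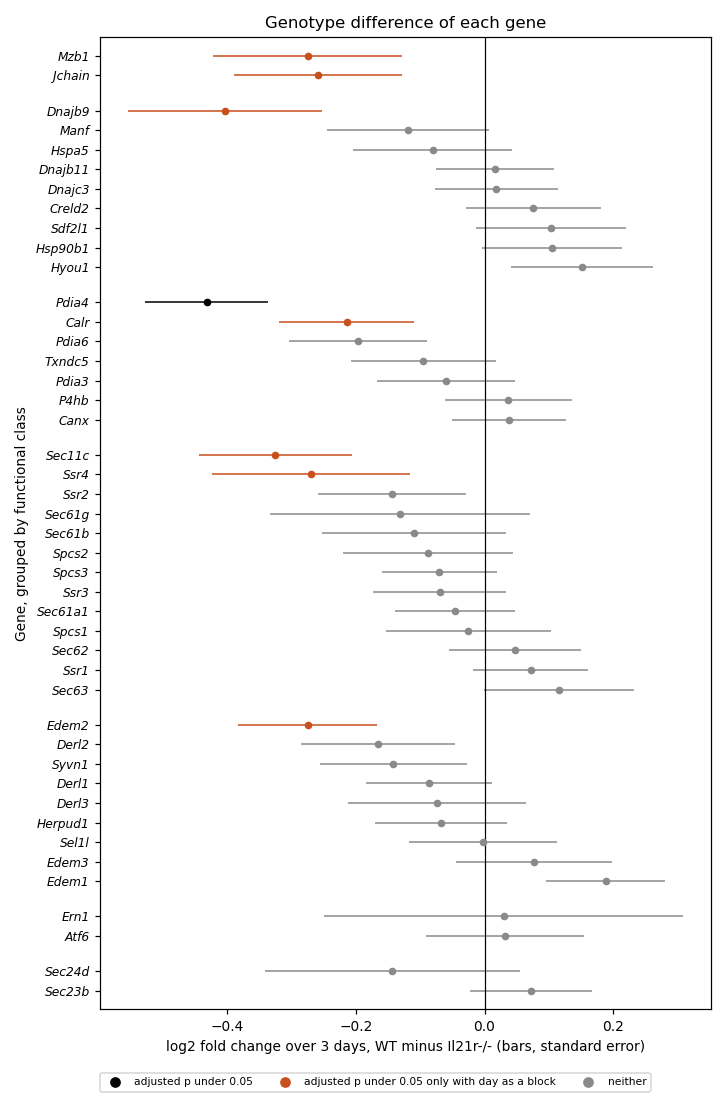
log2 fold change over the 3 days, WT minus Il21r-/- (x axis), for each of the 44 genes (y axis, grouped by class), with bars of 1 standard error; black marks an adjusted p under 0.05, orange an adjusted p under 0.05 only with day as a block, and grey neither. Pdia4 at -0.43 lies farthest from 0, the 8 black or orange genes are all on the side of Il21r-/-, and the other 36 are grey.

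Both antibody assembly genes were at higher levels in Il21r-/- on every day. Jchain encodes the joining chain that links IgM and IgA into polymers. It was at 2383, 2283 and 2516 CPM in WT on days 7, 10 and 14 and at 2835, 2462 and 3314 CPM in Il21r-/-. The day 10 library of Il21r-/- lay within the WT range and the other 2 lay above it. The difference of -0.26 (SE 0.13, log2) had an adjusted p of 0.298, and of 0.0171 with day as a block. Mzb1, a cofactor of GRP94 in the folding of immunoglobulin heavy chain, was at 1226, 1056 and 1326 CPM in WT and 1533, 1191 and 1641 CPM in Il21r-/-. Here too the Il21r-/- day 10 library fell inside the WT range. Its difference was -0.27 (SE 0.15), with an adjusted p of 0.328, or 0.00871 with the block.

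The 9 Hsp70 and Hsp90 chaperones and cofactors went in both directions, 6 with a positive and 3 with a negative difference, and none was called over the 3 days. Dnajb9, an Hsp70 cochaperone also known to bind the IRE1 sensor, was at 30.3, 24.2 and 30.5 CPM in WT and at 35.3, 32.0 and 46.0 CPM in Il21r-/-. Every Il21r-/- library was above every WT library, and the day 14 library of Il21r-/- stood highest. The difference of -0.40 (SE 0.15) was 1.32-fold, with an adjusted p of 0.169, or 0.00386 with day as a block. Hyou1, a large Hsp70-like nucleotide exchange factor, showed the largest difference in the opposite direction, at 77.2, 85.9 and 79.8 CPM in WT and 66.7, 81.3 and 70.7 CPM in Il21r-/-. Its genotypes overlapped, and the difference of 0.15 (SE 0.11) had an adjusted p of 0.473. Hspa5, which encodes BiP, the main Hsp70 of the ER and a carrier of the ERSE printed above, was at 515, 490.2 and 589.6 CPM in WT and 622, 494 and 568 CPM in Il21r-/-. It was higher in Il21r-/- on day 7, nearly equal on day 10 and lower on day 14, and the 95% interval of its difference over the 3 days ran from -0.36 to 0.20. Hsp90b1, with 2 ERSE matches, had a difference of 0.10 (SE 0.11, adjusted p = 0.638).

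Among the 7 lectin chaperones and disulfide isomerases, 5 had negative differences. Pdia4 encodes ERp72, a disulfide isomerase. Its level was 43.4, 41.7 and 44.8 CPM in WT and 57.3, 59.2 and 58.5 CPM in Il21r-/-. Every Il21r-/- library was above every WT library, and the range within each genotype was smaller than the gap between them. The difference of -0.43 (SE 0.10, 95% interval -0.65 to -0.21) was 1.35-fold, with an adjusted p of 0.0342, or 0.000656 with day as a block. The call was kept without the Il21r-/- day 10 library (adjusted p = 0.00895) and lost without any of the other 5 libraries (adjusted p between 0.100 and 0.226), with differences from -0.46 to -0.41 throughout. Calr, a lectin chaperone of glycoproteins, was at 594, 513 and 526 CPM in WT and 633, 601 and 659 CPM in Il21r-/-. Every Il21r-/- library exceeded every WT library, by a narrow margin between WT on day 7 and Il21r-/- on day 10. The difference was -0.21 (SE 0.10, adjusted p = 0.283, or 0.0353 with the block). Pdia3, the disulfide isomerase that works with the lectin chaperones, was at 691, 624 and 721 CPM in WT and 734, 659.5 and 728 CPM in Il21r-/-, a difference of -0.06 (SE 0.11, adjusted p = 0.796) between overlapping groups. Canx, the membrane-bound partner of Calr, and P4hb, the most widely studied disulfide isomerase, each had a difference of 0.04 with intervals from -0.16 to 0.24 and from -0.19 to 0.26.

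Of the 13 translocon, translocon-associated and signal peptidase genes, 10 had negative differences and none was called over the 3 days. Sec11c encodes a catalytic subunit of the signal peptidase. It was at 158, 159.9 and 208 CPM in WT and 202, 183 and 274 CPM in Il21r-/-. It was higher in Il21r-/- on each day, with WT on day 14 overlapping the Il21r-/- libraries of days 7 and 10. The difference of -0.32 (SE 0.12) was 1.25-fold, with an adjusted p of 0.159, or 0.00317 with the block. Ssr4, a subunit of the translocon-associated protein complex, was at 130.4, 106 and 126 CPM in WT and 163, 114 and 160.1 CPM in Il21r-/-. Its genotypes differed little on day 10, and the difference of -0.27 (SE 0.15) had an adjusted p of 0.36, or 0.021 with the block. Sec61b, the beta subunit of the channel, was at 146, 141 and 176 CPM in WT and 174, 131 and 195 CPM in Il21r-/-. It was lower in Il21r-/- on day 10 and higher on the other days, for a difference of -0.11 (SE 0.14, adjusted p = 0.714). The pore subunit Sec61a1 differed by -0.05 (SE 0.09) and the other signal peptidase subunits Spcs1, Spcs2 and Spcs3 by -0.03, -0.09 and -0.07, none of them called with or without the block.

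The 9 genes of ER-associated degradation had 7 negative differences, with the EDEM lectins, which direct misfolded glycoproteins to degradation, at both ends of the range. Edem2 was at 61.8, 56.5 and 45.0 CPM in WT and 66.0, 66.7 and 63.3 CPM in Il21r-/-. The groups did not overlap and were farthest apart on day 14, and the difference was -0.27 (SE 0.11, adjusted p = 0.188, or 0.0283 with the block). Edem1 was at 395, 317 and 237 CPM in WT and 319.9, 284 and 221 CPM in Il21r-/-. On each day WT was above Il21r-/-, while the groups overlapped across days, and its difference of 0.19 (SE 0.09), the most positive of the 44, had an adjusted p of 0.284, or 0.0685 with the block. Herpud1, a membrane organizer of the degradation complex and the carrier of the ERSE-II printed above, differed by -0.07 (SE 0.10, adjusted p = 0.757). Syvn1 and Sel1l, the ubiquitin ligase HRD1 and its partner, differed by -0.14 (SE 0.11, adjusted p = 0.522) and by less than 0.01 (SE 0.11, adjusted p = 0.994).

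The 2 stress sensors and the 2 COPII genes were not called by genotype in either fit. Atf6, a membrane-bound transcription factor released by cleavage in the Golgi, was at 55.3, 45.0 and 29.3 CPM in WT and 53.7, 48.5 and 25.7 CPM in Il21r-/-, a difference of 0.03 (SE 0.12) between overlapping groups. Ern1 was at 1.17, 1.26 and 1.03 CPM in WT and 1.09, 1.45 and 0.843 CPM in Il21r-/-, with an interval from -0.60 to 0.66, the widest of the members named. Sec24d, a cargo adaptor of the coat, was at 6.6, 12.3 and 10.6 CPM in WT and 7.38, 11.4 and 14.4 CPM in Il21r-/-, a difference of -0.14 (SE 0.20, adjusted p = 0.731). Sec23b, its GTPase-activating partner, was at 86.1, 82.2 and 65.7 CPM in WT and 79.6, 76.2 and 66.2 CPM in Il21r-/-, a difference of 0.07 (SE 0.09, adjusted p = 0.716).

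On single days no member was called between genotypes (edgeR likelihood ratio test with the spread of the model over 3 days), against 1.07% of all genes on day 7, 3.10% on day 10 and 3.28% on day 14. DESeq2 also called none on any day. At an unadjusted p under 0.05 there were 0 members on day 7, 1 on day 10 (Pdia4) and 2 on day 14 (Dnajb9 and Edem2), against 5.51%, 10.8% and 12.1% of all genes. Pdia4 differed by -0.40, -0.51 and -0.39 on days 7, 10 and 14, with an SE of 0.21 each and adjusted p-values of 0.907, 0.226 and 0.457. With a dispersion from the model that has day as a block, Pdia4 was called on day 10 (adjusted p = 0.0428) and Dnajb9 on day 14 (adjusted p = 0.0243), where 7.47% and 9.59% of all genes were called. The differences of Dnajb9 were -0.22, -0.40 and -0.59 (SE 0.29 each), and those of Edem2 -0.10, -0.24 and -0.49 (SE 0.22 each). These 2 series of values grew in size from day 7 to day 14, but the difference in day trend between genotypes was not called for any of the 44 members (edgeR quasi-likelihood test, 0 members at an unadjusted p under 0.05, and 0 with DESeq2), nor for any of the 11005 genes, of which 118 had an unadjusted p under 0.05. The direction was the same on all 3 days for 14 members higher in Il21r-/- (31.8%, against 27.9% of all genes) and for 5 higher in WT (against 25.4%). The plot of levels by genotype shows 5 of the members, with Xbp1 beside them.

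**Figure D3:**
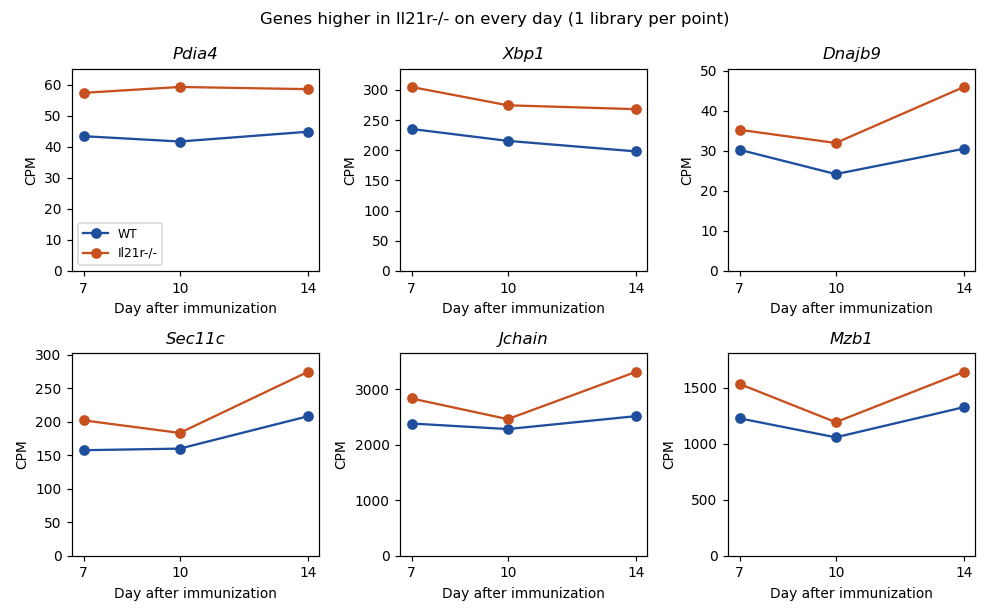
CPM (y axes, from 0) against day after immunization (x axes) for Pdia4, Xbp1, Dnajb9, Sec11c, Jchain and Mzb1, with 1 library per point, WT in blue and Il21r-/- in orange. The Il21r-/- line is above the WT line on each day in all 6 panels, and the gap of Jchain and Mzb1 is narrowest on day 10.

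The members called by time after immunization were Atf6 and Edem1. In the linear day effect common to both genotypes these 2 of 44 members were called, both falling, a share near that of all genes, of which 4.43% were called, 3.36% falling and 1.07% rising. At an unadjusted p under 0.05 there were 9 members against 23.5% of all genes, and 25 of 44 had a negative slope (56.8%, against 49.5%). Atf6 fell by 1.0 on the log2 scale over the 7 days from day 7 to day 14 (SE 0.15, adjusted p = 0.0147), 2.0-fold, and the level of each day was below that of the day before in both genotypes. Edem1 fell by 0.64 (SE 0.11, adjusted p = 0.0215), 1.56-fold, again with a lower level at each later day in both genotypes. Both calls were kept without either day 10 library and lost without any one of the 4 libraries of day 7 or day 14, with adjusted p-values from 0.0536 to 0.185 for Atf6 and from 0.0756 to 0.322 for Edem1.

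Other degradation genes had slopes in the same direction that missed the threshold, and 8 of the 9 genes of that class had a negative slope. Syvn1 was at 244, 226 and 156 CPM in WT and 247, 259 and 180.3 CPM in Il21r-/-, a change of -0.57 over 7 days (SE 0.14, adjusted p = 0.0617). Its day 14 libraries were the lowest of the 6. Edem3 was at 54.6, 45.9 and 35.5 CPM in WT and 44.8, 49.3 and 33.9 CPM in Il21r-/-, a change of -0.53 (SE 0.15, adjusted p = 0.0853). Both genes were called with DESeq2 (adjusted p = 0.00837 for Syvn1 and 0.0393 for Edem3), which called 7.91% of all genes, and with all genes of any count retained. Only 2 members had positive slopes at an unadjusted p under 0.05, Sec24d with 0.78 over 7 days (SE 0.24, adjusted p = 0.11) and Sec11c with 0.44 (SE 0.14, adjusted p = 0.109). For Sec24d the 2 day 7 libraries were the lowest of the 6, and in WT the day 10 level exceeded that of day 14. It was called as a rise with DESeq2 (adjusted p = 0.0431), and both genes were called for day 14 against day 7 with day as a factor, as were 26.2% of all genes. A fall from day 7 to day 10 and again to day 14 in both genotypes was seen for 8 members (18.2%, against 11.2% of all genes), namely Dnajb11, Dnajc3, Sec61a1, Ssr1, Derl1, Edem1, Atf6 and Sec23b, and a rise at both steps in both genotypes for 0, against 5.72% of all genes.

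**Figure D4:**
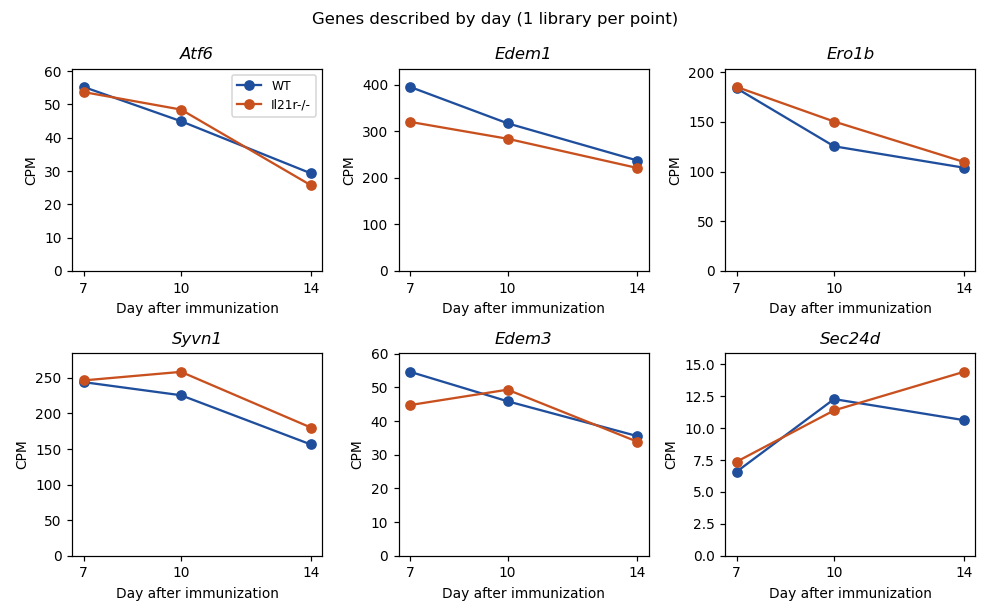
CPM (y axes, from 0) against day after immunization (x axes) for Atf6, Edem1, Ero1b, Syvn1, Edem3 and Sec24d, with 1 library per point, WT in blue and Il21r-/- in orange. Atf6, Edem1 and Ero1b are lower at each later day in both genotypes, Syvn1 and Edem3 are lowest on day 14, and Sec24d is lowest on day 7.

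The pathway holds other genes that are not on the list, of which 71 were looked up and 66 could be tested. Over the 3 days 1 was called, Xbp1, which encodes the transcription factor made active when IRE1 splices its messenger RNA. It was at 235, 216 and 198 CPM in WT and 305, 275 and 268 CPM in Il21r-/-, with no overlap. The difference of -0.39 (SE 0.09) was 1.31-fold, with an adjusted p of 0.0396, or 0.000287 with day as a block. The adjusted p was 0.0106 with DESeq2, 0.0518 in edgeR with DESeq2 size factors, 0.0544 with a minimum of 10 counts in every library, 0.00546 without the Il21r-/- day 10 library, and between 0.139 and 0.299 without each of the other libraries. Gene-level counts do not separate the spliced from the unspliced form of Xbp1. With the block 9 of the 66 were called (13.6%), all higher in Il21r-/-, a direction in which 13.6% of all genes were called.

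Of the arm of the response that runs through the kinase PERK, Eif2ak3, which encodes the kinase, was at 146, 129 and 112 CPM in WT and 115, 137 and 107 CPM in Il21r-/- (0.10, SE 0.12, adjusted p = 0.666). Atf4, its downstream transcription factor, was at 102, 100.3 and 114 CPM in WT and 106, 95.4 and 115 CPM in Il21r-/-, and the genotypes overlapped with an interval from -0.23 to 0.23. Ddit3, which encodes CHOP, was at 4.91, 3.86 and 5.76 CPM in WT and 7.72, 6.25 and 8.83 CPM in Il21r-/-. Its genotypes did not overlap, and the difference of -0.65 (SE 0.20) was 1.57-fold, with an adjusted p of 0.0969, or 0.00296 with the block. In the linear day effect 1 of the 66 was called, Ero1b, the oxidase that recharges disulfide isomerases, which was at 184, 125 and 104 CPM in WT and 185, 150.4 and 109.7 CPM in Il21r-/- and fell by 0.78 over the 7 days (SE 0.12, adjusted p = 0.0147). That call too was lost without any one of the libraries of day 7 or day 14 (adjusted p between 0.0716 and 0.201). The plot of levels by day places it beside Atf6 and Edem1.

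The genotype differences of members with and without an ERSE or ERSE-II covered overlapping ranges. The 11 members with ERSE or ERSE-II in their window had a median difference of -0.07 (range -0.21 to 0.10), 6 of them were higher in Il21r-/-, and Calr was the 1 called with the block. The 24 members with a window and neither element, which include Sec24d and Txndc5 with their UPRE, had a median of -0.06 (range -0.43 to 0.19). Of these, 15 were higher in Il21r-/- and 5 were called with the block, which called 22.9% of all genes. Only exact spellings were searched, so a member with a variant spelling would fall among the 24. Of the 11 members with ERSE or ERSE-II, 0 were called by genotype or day in the models without the block, and Pdia4 and Edem1, whose upstream bases are printed above, were among the 24.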

How the data were processed

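RNA-seq was done on 6 libraries of sorted splenic GC B cells. The authors ran CASAVA 1.8.2, mapped single-end reads to mm10 with Rsubread and deposited whole-number counts per Entrez gene from featureCounts. Strand and multi-mapping settings are not given in the sources used here, so genes that overlap others (Hspa5, Spcs1, Derl2, Syvn1, Pdia3, Pdia6) or have near copies (Spcs2, Dnajc3) are less certain. Symbols came from RefSeq GRCm38.p6 (25275 genes) and GENCODE (18), and 1886 genes stayed unnamed. Protein sequences were not used here.

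Genes with an average log2 CPM of at least 0 were tested, without Y-linked, Xist and immunoglobulin variable genes. TMM-scaled counts were fitted in edgeR 4.0.16 (R 4.3.3) with genotype and linear day, leaving 3 residual degrees of freedom (biological coefficient of variation 13.1%), by robust quasi-likelihood tests. Day-wise likelihood ratio tests, with 1 library per genotype and day, used that model's dispersion, and a genotype by day term tested the difference in trend. P-values were adjusted by Benjamini-Hochberg over 11005 genes. The labels give the day of each library. Deviations from the genotype means correlated between the 2 libraries of a day (r = 0.654, 0.464 and 0.669 on days 7, 10 and 14). Day was not removed first, so a change with day common to both genotypes adds to r, and pairing beyond it is not shown. Values with day as a block are printed where they change a call. The fits were tested on simulated counts whose changes were larger than any genotype difference of the members. No deviation shared by the libraries of a day was added beyond those changes. That test therefore does not cover differences of the members' size. DESeq2 1.42.0, other size factors, other filters and leaving out each library were the alternatives. Values in every library are given for members past a threshold, the 2 with the largest difference in each class and the 5 highest per kilobase. Hspa5, Syvn1, Edem3 and Prdm1 were added after their values were seen. Test results of Irf4 and Cd68 were added in the same way. The members, lists and tests were chosen with earlier results of these data known.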

Additional observations from a re-analysis of the deposited data

How the results depend on the processing

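Over the 3 days, 1 member was called by genotype, and this was so with DESeq2 size factors, both other count filters, the sex-linked and immunoglobulin variable genes kept, and DESeq2. With day as a replicate block there were 8, and leaving out 1 library gave 0 to 6, the 6 (Dnajb9, Jchain, Mzb1, Pdia4, Sec11c, Ssr4) without the Il21r-/- day 10 library and 0 without each of the others. On single days the count stayed at 0 except with a dispersion from the day block, which called 1 on day 10 (Pdia4) and 1 on day 14 (Dnajb9). In the linear day effect the 2 members became 4 with all genes of any count, 5 with DESeq2 and 9 for day 14 against day 7 with day as a factor, and leaving out 1 library gave 0 to 9, again with the most without the Il21r-/- day 10 library. The difference in trend called 0 members under every alternative. No paired analysis was possible for the day effect because the pairing is by day. The differences of Atf6 (-0.0631 to 0.142), Ern1 (-0.127 to 0.252), Sec24d (-0.375 to 0.0640), Sec61b (-0.252 to 0.0647) and Pdia3 (-0.119 to 0.0125) changed sign when single libraries were left out. Across settings all genes called ranged from 132 to 2519 over 3 days (651 as reported), 32 to 303 on day 7 (118), 132 to 822 on day 10 (341), 93 to 1055 on day 14 (361), 0 to 2880 by day (488) and 0 to 12 for the trend difference (0). The cause was not tested. One library per genotype and day, with standard errors of 0.18 to 0.57 on a single day, limits what can be shown.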
